A study of Mus musculus with 8 samples.

Results

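Translation initiation and elongation factors are the proteins that load a ribosome onto an mRNA, find the start codon and carry the ribosome along the coding sequence. They were followed here by their RNA in mouse CD8+ T cells, the cytotoxic lineage of T lymphocytes. The members were all gene symbols that begin with *Eif1* to *Eif6* or with *Eef1* or *Eef2*. The *Eif2ak* kinases and symbols that contain -ps (pseudogenes) were left out, which removed 11 symbols. The rule used names only and no measured value, and it found 62 of the 48321 symbols in the count tables. Of these, 56 had enough counts to be tested. The other 6 were below the filter: *Eef1a2*, *Eif2c5*, *Eif2s3y*, *Eif3j2*, *Eif4e1b* and *Eif4ebp3*.

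The libraries came from sorted peripheral CD8+ T cells of the spleen of C57BL/6 mice, and age was not given. The series describes floxed *Satb1* alleles (F/F) with *E8I-cre*, a Cre transgene active in mature cells of the CD8 lineage. SATB1 is a nuclear protein that organises chromatin in T cells. The labels name 2 genotypes, WT and KO, and 2 times, day 0 and day 5, with 2 libraries in each of the 4 groups. Whether the WT mice carried floxed alleles or Cre is not stated. The series speaks of cells cultured and stimulated in vitro, and the stimulus is not given in the labels. Nothing says that the libraries of a group came from separate animals, so the p-values below measure only the spread between these libraries.

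The targeted gene went against the label at day 0. Expression is given as CPM, the counts of a gene scaled to library size. At day 0 *Satb1* had 97.8 and 91.6 CPM in the WT libraries, and the KO-labelled libraries had 144 and 125 CPM. At day 5 the WT libraries had 96.5 and 116 CPM, and the KO-labelled ones 56.5 and 62.3 CPM. The log2 fold change of *Satb1* was 0.51 at day 0 (FDR 0.125) and -0.84 at day 5 (FDR 0.0162). A count over the whole gene does not separate the deleted exons from the rest. KO is used below as the label of those libraries, and each direction drawn from it rests on that label. CD8 T-cell markers summed to between 9521 and 10680 CPM at day 0 and between 6160 and 6871 CPM at day 5, and *Cd4* was at most 0.964 CPM. Among B-cell markers, *Cd79b* had 66.7 to 164 CPM and *Ms4a1* at most 0.367 CPM. Gene count totals lay between 4170126 and 11117971, which was 21.2% to 24.5% of the records of a library.

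Initiation begins with eIF2, which carries the initiator tRNA to the small ribosomal subunit, and eIF2B, which recharges eIF2 with GTP. The eIF4F complex joins the cap-binding protein eIF4E, the scaffold eIF4G and the helicase eIF4A at the 5′ end of the mRNA, and eIF3 bridges mRNA and ribosome. eEF1A then delivers aminoacyl-tRNA and eEF2 moves the ribosome along. Resting T cells make little protein, and activated T cells enlarge and raise protein synthesis, in part through mTOR, which phosphorylates the eIF4E-binding proteins and relieves their hold on eIF4E.

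Sequence near the start sites was examined for 2 short motifs tied by background knowledge to the control of this machinery. The first was the E-box CACGTG, a palindrome bound by MYC and related factors. The second was a TOP-like start, here C followed by at least 4 pyrimidines (C or T) on the gene's strand, beginning within 5 bases of the start. TOP starts mark mRNAs whose translation responds to mTOR. The windows ran from 250 bases before to 50 bases after each start (RefSeq, GRCm38.p6), and 47 of the 62 members had at least 1 window. An E-box lay in 12 of the 47 (25.5%) and a TOP-like start in 12 (25.5%). Among tested members with a window (44), the shares were 27.3% and 22.7%, beside 12.1% and 24% of all 8627 tested genes with a window. No E-box overlapped a TOP-like start in a member.

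The stretches below were picked from the members that carry a motif. They do not cover the members with the largest culture changes. *Eif4ebp1*, *Eif4e3* and *Eif4g2* had no window, and *Eif2s2* and *Eif3c* had neither motif. Each is written 5′ to 3′ on the gene's own strand, with the motif in capitals.
Eif4a1, E-box 189 bases before the start: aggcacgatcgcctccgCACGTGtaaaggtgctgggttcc
Eif5a, E-box 185 bases before one start and 74 before another: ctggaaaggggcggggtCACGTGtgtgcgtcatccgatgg
Eif4e, E-box 64 bases before the start: acacgtccgtCACGTGggcaggagcc
Eef2, E-box 43 bases before the start: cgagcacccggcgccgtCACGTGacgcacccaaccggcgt
Eef1a1, TOP-like start from 1 base before the annotated start: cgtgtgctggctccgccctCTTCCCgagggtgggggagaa
The *Eif4a1* stretch is chr11:69672590-69672629 on the minus strand, outside any gene annotated in GENCODE M21. That of *Eif5a* is chr11:69921438-69921477 on the minus strand, inside the gene and in no exon. The *Eif4e* stretch, chr3:138527194-138527219 on the plus strand, lies in an exon of other annotated *Eif4e* transcripts. The stretch of *Eef2* is chr10:81176571-81176610 on the plus strand, before the gene. For *Eef1a1* it is chr9:78481705-78481744 on the minus strand, and 20 of its 40 bases are exonic. A match describes these letters only and is not evidence of binding.

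Levels between members were compared as CPM per kilobase of exon, with the exons of all transcripts of a gene merged. *Eef1a1*, which delivers aminoacyl-tRNA, was the highest, at 984 CPM per kb on average over the 8 libraries (range 815 to 1119). *Eef2*, the translocase, followed at 375 (328 to 455), then *Eif3h* at 360 (272 to 426) and *Eif5a* at 264 (133 to 391). The ranges of *Eef2*, *Eif3h* and *Eif5a* overlapped, so their order is not resolved. *Eif5a* encodes the factor that helps the ribosome through stretches of proline. The lowest tested members were *Eif3j1* at 0.596, *Eef2k* at 0.815, *Eif5a2* at 0.820 and *Eif4ebp2* at 0.835 CPM per kb. Their ranges overlapped as well.

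Some levels are lower bounds. Reads that aligned to more than 1 place were set aside, and 11 members have at least 10% of their 50-base exon windows copied exactly elsewhere. These include *Eef1a1* (38.6%), *Eef1g* (44.2%), *Eif3j1* (44.7%), *Eif2s3x* (34.6%), *Eif4a1* (24.8%) and *Eif3h* (20.3%). The gene with most of the copies is a processed pseudogene for *Eef1a1* and *Eif4a1*, and is *Eif3j2* for *Eif3j1*. The kit did not mark strand, and 43.3% of the exon bases of *Eif3d* overlap exons of the other strand.

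**Figure D1:**
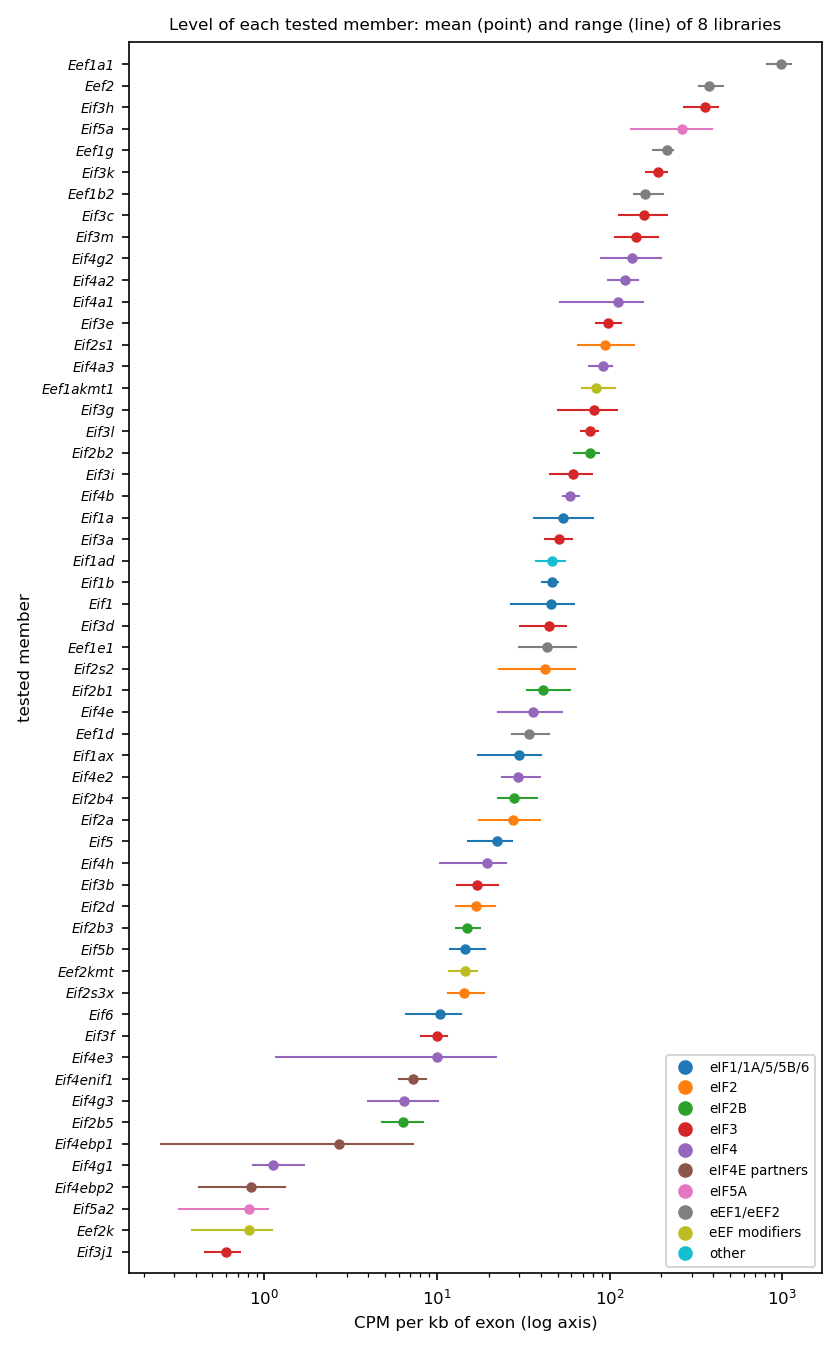
Level of each tested member on a log axis, as CPM per kb of exon. Points are means of the 8 libraries, lines run from the lowest to the highest library, and colours give the role. *Eef1a1* stands at 984, and most other members lie between 10 and 200.

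Paralogues were expressed at unequal levels. *Eif5a* had 135 to 569 times the level per kb of *Eif5a2*, its second gene copy. *Eef1a2*, the form of eEF1A of muscle and neurons, had 0 to 7 counts per library beside 2031 to 2790 CPM of *Eef1a1*. *Eif1* and *Eif1b*, which watch over start-codon choice, were close as counted, with *Eif1* at 0.535 to 1.42 times the level per kb of *Eif1b*. Exact copies elsewhere cover 19.2% of the *Eif1* windows and 0% of those of *Eif1b*, so these ratios are lower bounds. *Eif1a* had 1.48 to 3.01 times the level of its X-linked counterpart *Eif1ax*. *Eif2s3x* encodes the GTP-binding subunit of eIF2 and has a Y-linked copy, *Eif2s3y*. *Eif2s3y* had 0 counts in all 8 libraries, which allows up to 0.27 to 0.719 CPM depending on depth, covering counting error only. The Y-linked genes *Ddx3y*, *Uty* and *Kdm5d* were also at 0 counts, and *Xist* was at 308 to 580 CPM. *Eif4g2*, which encodes a scaffold that cannot bind eIF4E, had the highest level per kb of the eIF4G genes, 15.1 to 25.8 times that of *Eif4g3*. The canonical scaffold gene *Eif4g1* was low, at 6.25 to 12.4 CPM and 1.12 CPM per kb, although almost none of its exon windows is copied elsewhere (0.0248%).

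After culture the sum of all members was 17303 ± 809 CPM in WT, and under the KO label 17356 ± 421 CPM (SD, n = 2). Before culture it was 15672 ± 54.4 CPM in WT and 14103 ± 371 CPM in KO. On this scale all 4 libraries of day 5 were above all 4 of day 0. As a share of unscaled gene counts the days overlapped: WT had 1.65% and 1.64% at day 0 and 1.64% and 1.66% at day 5, and KO had 1.51% and 1.47% and then 1.64% and 1.59%. The sum of the eIF2 list went from 779 ± 1.57 to 1451 ± 98.3 CPM in WT and from 791 ± 10.1 to 1384 ± 31.3 CPM in KO. The sum of the eIF4 list went the other way, from 3913 ± 71.9 to 3395 ± 105 CPM in WT and from 3855 ± 228 to 3363 ± 51.4 CPM in KO. The largest fall within the list was that of *Eif4g2*, and other members, such as *Eif4a2* and *Eif4g3*, also had lower means at day 5. *Eif4g2* went from 1687 ± 39.6 to 943 ± 58.1 CPM in WT and from 1939 ± 105 to 947 ± 29.6 CPM in KO. This was a larger fall than that of the list, and the rest of the list together rose. These sums are descriptions, and high members weigh most in them. In bulk RNA, fewer cells of a type and less RNA per cell cannot be told apart.

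In WT, 25 of the 56 tested members changed between day 0 and day 5, 19 higher and 6 lower (edgeR quasi-likelihood test, Benjamini-Hochberg FDR under 0.05). The higher calls were 33.9% of members beside 24.7% of all 12597 genes tested, and the lower calls were 10.7% beside 23.6%. In the libraries labelled KO, 26 members changed, 23 higher (41.1% beside 26.2%) and 3 lower (5.36% beside 24%). The median log2 fold change of members was 0.18 in WT and 0.28 in KO, beside -0.04 and -0.05 over all genes. In both genotypes 17 members were called, in the same direction each time, 15 higher and 2 lower. The share of all genes called in both is not given here, so this count describes the members only. The lower pair was *Eif4g2* and *Eif4g3*. Both medians depended on the scaling and on base composition, as given next.

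With library totals as the only scaling, 15 members were called higher and 9 lower in WT, beside 2668 and 3560 of all 12597 genes. In KO the members were 15 and 6, beside 2755 and 3936 of all genes. That scaling moved the median of all genes to -0.17 and -0.23. When each library was corrected for GC content and exon length (an offset in the fit), WT had 14 higher and 13 lower calls. Over all 12474 genes in that fit, 2579 were higher and 3465 lower in WT. KO had 16 and 9 members, beside 2777 and 3680 of all genes. The median of all genes was then -0.18 and -0.20, and that of members -0.04 and 0.02. Members stayed above the median of all genes in each case. Across the 56 members the WT culture log2 fold change went down with GC content (Spearman's rho -0.504, beside -0.127 over all genes), and in KO the rho was -0.135 (0.0475 over all genes). Members share libraries and depth, so these correlations are descriptions. Leaving out replicate 1 of WT at day 0 left 1 library in that group. The WT median of members was then 0.21, beside -0.02 over all genes. The summed CD8 T-cell markers and *Cd79b* also fell with the day. Within that sum *Cd8b1* had 3367 to 4057 CPM at day 0 and 1199 to 1368 CPM at day 5, and *Cd8a* and *Cd3e* also fell. The days overlapped for *Cd3d*, with 1424 to 1630 CPM at day 0 and 1461 to 1594 CPM at day 5. They overlapped for *Cd3g* too, with 2206 to 2477 CPM and then 2065 to 2282 CPM. The part of cell composition in the culture changes of members was not tested.

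**Figure D2:**
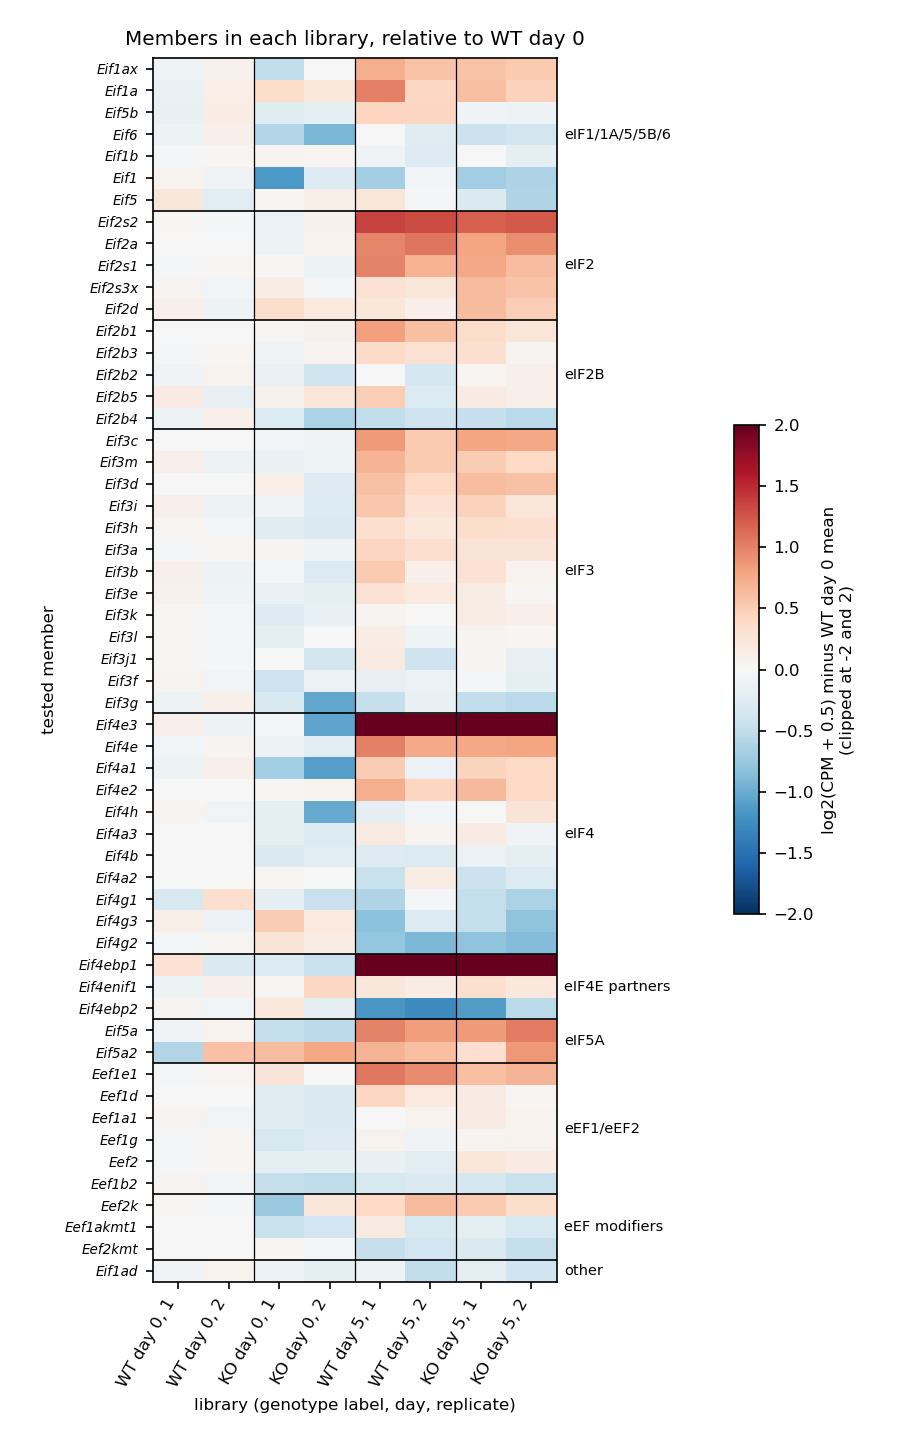
Heat map of the 56 tested members in the 8 libraries. Colour is log2(CPM + 0.5) minus the mean of the 2 WT day 0 libraries, clipped at -2 and 2, with rows grouped by role and ordered by culture response. *Eif4ebp1* and *Eif4e3* are red in all 4 day 5 libraries, *Eif4g2* is blue in them, and *Eif4a1* is blue in both KO day 0 libraries.

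The largest changes were in genes around eIF4E. *Eif4ebp1* encodes 4E-BP1, which blocks eIF4E from joining the scaffold until mTOR phosphorylates it. It had 1.25 and 0.678 CPM in WT and 0.686 and 0.551 CPM in KO at day 0. At day 5 it had 9.88 and 15.9 CPM in WT and 7.17 and 11.4 CPM in KO. Every day 5 library was above every day 0 library. The log2 fold change was 3.66 ± 0.49 (SE, FDR 5.18e-05) in WT and 3.82 ± 0.48 (FDR 3.37e-05) in KO by edgeR with Benjamini-Hochberg adjustment. The day 0 levels rest on 10 counts over the WT libraries and 11 over the KO libraries. Pooled over each group the rise was 11.3-fold in WT (95% exact interval 5.92 to 24.1, counting error only) and 12.7-fold in KO (6.80 to 26.3).

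*Eif4ebp2*, the paralogous inhibitor, had 6.80 and 6.33 CPM in WT and 7.64 and 5.69 CPM in KO at day 0, and 2.65 and 2.41 CPM in WT and 2.76 and 4.36 CPM in KO at day 5. It fell in WT by 1.37 on the log2 scale (SE 0.40, edgeR FDR 0.0135, range over the alternatives 0.00781 to 0.0617). In KO the log2 fold change was -0.92 (FDR 0.0520) and was not called. Leaving out WT day 0 replicate 1, WT day 5 replicate 1 or WT day 5 replicate 2 ended the WT call, with FDR of 0.0598, 0.0572 and 0.0617. Per kb, *Eif4ebp1* was at 0.237 to 0.485 times the level of *Eif4ebp2* at day 0 and at 6.85 to 17.4 times at day 5, so the more abundant of these inhibitor RNAs switched. *Eif4ebp3* had at most 2 counts in any library. *Eif4enif1*, which carries eIF4E into the nucleus, had log2 fold changes of 0.19 and 0.04 and was not called.

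*Eif4e3*, a less common cap-binding protein, had 7.16 and 6.11 CPM in WT and 6.43 and 2.94 CPM in KO at day 0. At day 5 it had 52.9 and 54.9 CPM in WT and 33.7 and 36.7 CPM in KO. The log2 fold change was 3.01 ± 0.28 (FDR 2.45e-06) in WT and 2.80 ± 0.28 (FDR 3.55e-06) in KO by edgeR. *Eif4e*, the main cap-binding protein, went from 152 and 164 CPM to 317 and 268 CPM in WT, and from 147 and 135 CPM to 269 and 274 CPM in KO. Its log2 fold changes were 0.89 ± 0.13 (FDR 0.000102) and 0.94 ± 0.13 (FDR 5.89e-05). *Eif4e2*, a cap-binding protein linked to repression, rose as well, by log2 fold changes of 0.59 (FDR 0.00376) and 0.49 (FDR 0.0105). The KO call of *Eif4e2* was lost without KO day 0 replicate 1 (FDR 0.0515) or KO day 5 replicate 1 (FDR 0.125). *Eif4e* stayed the more abundant per kb, but its lead over *Eif4e3* went from 8.89 to 19.3 times at day 0 to 2.04 to 3.34 times at day 5.

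Of the 3 scaffold genes, *Eif4g2* and *Eif4g3* fell. *Eif4g2* had 1659 and 1715 CPM in WT and 2014 and 1865 CPM in KO at day 0, and 984 and 902 CPM in WT and 968 and 926 CPM in KO at day 5. The 4 day 5 libraries lay far below the 4 day 0 libraries. It fell by 0.84 on the log2 scale in WT (SE 0.11, edgeR FDR 3.40e-05) and by 1.03 in KO (SE 0.11, FDR 5.27e-06). *Eif4g3* went from 85.1 and 72.4 CPM to 44.3 and 64.8 CPM in WT, and from 112 and 90.1 CPM to 56.3 and 44.7 CPM in KO. It fell by 1.01 in KO (SE 0.20, FDR 0.00122) and by 0.54 in WT (SE 0.21, FDR 0.0457). The WT call of *Eif4g3* was lost in 13 of 20 alternatives, 6 of which left out a library (FDR 0.0575 to 0.377). With the GC and length offset its WT log2 fold change was -0.13 (FDR 0.659). *Eif4g1* had log2 fold changes of -0.35 and -0.27 and was not called.

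**Figure D3:**
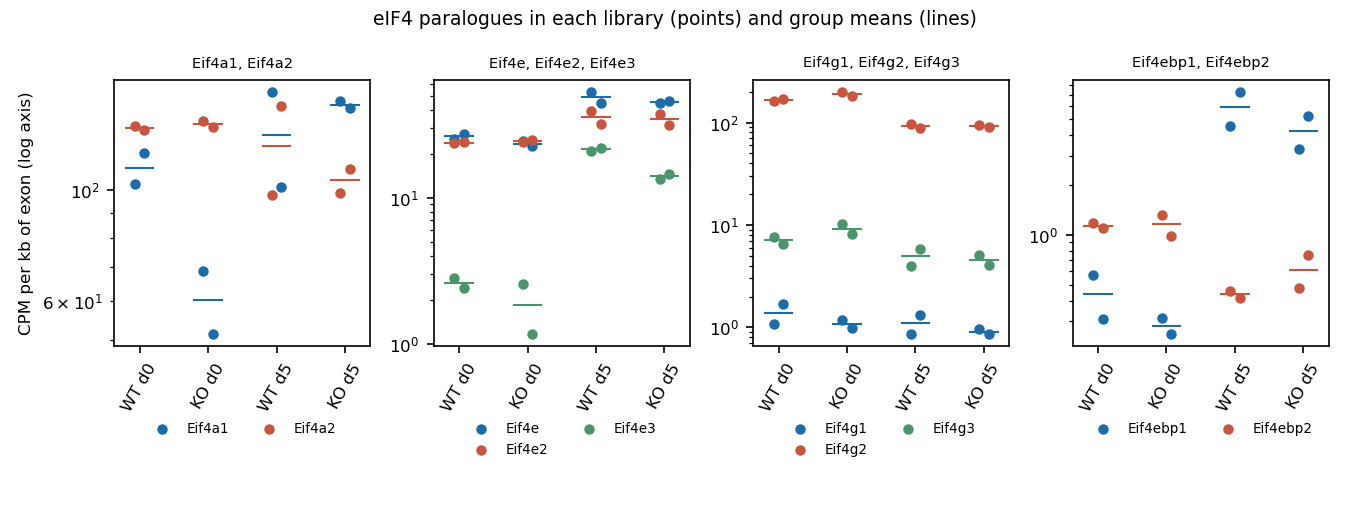
Levels per kb of exon of 4 groups of eIF4 paralogues on log axes, by genotype label and day. Points are libraries and short lines are means of 2 libraries. *Eif4ebp1* crosses *Eif4ebp2* between the days, and *Eif4a1* is lowest in KO at day 0.

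The eIF2 list, which carries the initiator tRNA, had 3 of 5 tested members higher in WT (*Eif2s1*, *Eif2s2* and *Eif2a*), beside 24.7% of all genes. In KO 4 of 5 were higher, as *Eif2s3x* joined them, beside 26.2% of all genes. *Eif2s2*, the beta subunit, had 171 and 164 CPM in WT and 155 and 177 CPM in KO at day 0, and 428 and 413 CPM in WT and 385 and 395 CPM in KO at day 5. Each group was tight and the days did not overlap. Its log2 fold change was 1.33 ± 0.12 (FDR 1.90e-06) in WT and 1.24 ± 0.12 (FDR 3.01e-06) in KO by edgeR. *Eif2s1*, the alpha subunit that stress kinases phosphorylate, went from 338 and 358 CPM to 689 and 561 CPM in WT and from 355 and 324 CPM to 592 and 534 CPM in KO. The log2 fold changes of *Eif2s1* were 0.85 (FDR 0.000172) and 0.73 (FDR 0.000487). *Eif2a*, a separate initiator tRNA binding protein despite its name, rose with log2 fold changes of 1.03 (FDR 3.03e-05) and 0.88 (FDR 9.62e-05).

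*Eif2s3x*, the gamma subunit, had log2 fold changes of 0.26 in WT (FDR 0.180) and 0.55 in KO (FDR 0.00916). The KO call was lost without KO day 0 replicate 2 (FDR 0.0597) or KO day 5 replicate 1 (FDR 0.0690), and with the GC and length offset (log2 fold change 0.30, FDR 0.115). *Eif2d*, the remaining member of the list, was not called in either genotype. The 5 eIF2B subunits, which recharge eIF2, did not move together. In WT *Eif2b1* rose (log2 fold change 0.72, FDR 0.000851) and *Eif2b4* fell (-0.46, FDR 0.0328), beside 24.7% of all genes higher and 23.6% lower. The *Eif2b1* call held in all 20 alternatives and the *Eif2b4* call in 12. *Eif2b4* was lost without either WT day 0 library, either WT day 5 library or either KO day 5 library (FDR 0.0553 to 0.207). In KO the log2 fold changes of the 5 lay between -0.07 and 0.33 and did not pass the test.

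Of 13 tested eIF3 subunits, 6 rose in WT, beside 24.7% of all genes, and 6 in KO, beside 26.2%. The 5 that were called in both were *Eif3c*, *Eif3d*, *Eif3h*, *Eif3i* and *Eif3m*. The median over the 13 was 0.28 in WT and 0.33 in KO. *Eif3c*, a core subunit, had 418 and 423 CPM in WT and 404 and 401 CPM in KO at day 0, and 759 and 606 CPM in WT and 731 and 717 CPM in KO at day 5. Its log2 fold change was 0.70 ± 0.12 (FDR 0.000553) in WT and 0.85 ± 0.12 (FDR 0.000111) in KO by edgeR. *Eif3m* followed with 0.60 and 0.56, and *Eif3d*, which can itself bind the cap, with 0.50 and 0.65. *Eif3i* had 0.42 and 0.53, and *Eif3h* 0.28 and 0.61. The call in both genotypes held in all 21 settings, the reported one included, for *Eif3c*, in 19 for *Eif3m*, in 18 for *Eif3d*, in 13 for *Eif3i* and in 8 for *Eif3h*. The WT log2 fold change of *Eif3h* turned to -0.11 in both settings with the GC and length offset. Per kb, the subunits ranged from 360 CPM for *Eif3h* down to 8.13 to 11.4 CPM over the libraries for *Eif3f*, leaving aside the loosely bound *Eif3j1*.

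Among the 7 factors of scanning, subunit joining and ribosome assembly, 3 rose in WT (*Eif1a*, *Eif1ax* and *Eif5b*), beside 24.7% of all genes. In KO 1 of the 7 rose (*Eif1ax*), beside 26.2% of all genes, and 1 fell (*Eif5*), beside 24%. *Eif1ax*, which holds the scanning ribosome open for the start codon, had 120 and 136 CPM in WT and 90.9 and 128 CPM in KO at day 0. At day 5 it had 212 and 189 CPM in WT and 190 and 185 CPM in KO. The log2 fold changes of *Eif1ax* were 0.65 (FDR 0.00538) and 0.79 (FDR 0.00139). The WT call was lost without WT day 0 replicate 1 (FDR 0.0595) and with the GC and length offset (log2 fold change 0.32, FDR 0.137). *Eif1a* rose in WT by a log2 fold change of 0.73 (FDR 0.00460), which was lost without WT day 0 replicate 1 (0.61, FDR 0.0646) and with the GC and length offset (0.39, FDR 0.0968, or 0.37, FDR 0.112, with the replicate block), and had 0.24 in KO (FDR 0.276). *Eif5b*, the GTPase of subunit joining, had 0.43 (FDR 0.0184) in WT and 0.12 in KO. Its WT call held in 15 of 20 alternatives and was lost without WT day 0 replicate 1 (0.29, FDR 0.177), with library totals (0.30, FDR 0.0836), with no filter (FDR 0.0750) and with the GC and length offset (0.26, FDR 0.128). *Eif5*, which triggers GTP hydrolysis by eIF2, had 0.09 in WT and fell by 0.52 in KO (FDR 0.0238). That call was lost without KO day 0 replicate 1 (FDR 0.0553), KO day 0 replicate 2 (FDR 0.0748) or KO day 5 replicate 2 (FDR 0.220).

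*Eif5a* had 433 and 476 CPM in WT and 327 and 316 CPM in KO at day 0, and 907 and 807 CPM in WT and 822 and 929 CPM in KO at day 5. The KO libraries were below the WT libraries at day 0 and overlapped them at day 5. The log2 fold change was 0.91 ± 0.12 (FDR 4.50e-05) in WT and 1.45 ± 0.12 (FDR 7.91e-07) in KO by edgeR. *Eif5a* and *Eif4a1* both lie on chromosome 11 of GRCm38, at 69916714 to 69921958 and 69666936 to 69672423. There are 244290 bases between them, and the genes in that interval were not examined.

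Of 6 tested genes named after eEF1 and eEF2, *Eef1e1* rose and *Eef1b2* fell in WT, beside 24.7% of all genes higher and 23.6% lower. In KO 5 of the 6 rose (*Eef1a1*, *Eef1d*, *Eef1e1*, *Eef1g* and *Eef2*), beside 26.2% of all genes. *Eef1e1* is in the list by its name and encodes a part of the tRNA synthetase complex, so the only WT rise is not that of an elongation factor. It had 97.0 and 103 CPM in WT and 119 and 98.9 CPM in KO at day 0. At day 5 it had 207 and 193 CPM in WT and 151 and 160 CPM in KO. Its log2 fold changes were 1.01 ± 0.14 (FDR 5.78e-05) and 0.51 ± 0.13 (FDR 0.00661). The KO call was lost without KO day 0 replicate 2 (FDR 0.0584) or KO day 5 replicate 2 (FDR 0.0600), and with the GC and length offset (0.23, FDR 0.174). *Eef1a1* had 2594 and 2394 CPM in WT and 2103 and 2031 CPM in KO at day 0, and 2473 and 2619 CPM in WT and 2790 and 2627 CPM in KO at day 5. The WT days overlapped and the KO days did not. Its log2 fold change was 0.03 in WT (FDR 0.832) and 0.39 in KO (FDR 0.00625), and the KO call was lost with library totals (0.21, FDR 0.0885) and with the GC and length offset (0.06, FDR 0.635). *Eef2* had log2 fold changes of -0.19 in WT (FDR 0.144) and 0.39 in KO (FDR 0.00669). Its KO call held in 16 of 20 alternatives and was lost with library totals (FDR 0.0691), with the GC and length offset (0.13, FDR 0.304) and without KO day 5 replicate 1 (FDR 0.0552).

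The other calls among the elongation factors were less stable. The WT fall of *Eef1b2* (-0.31, FDR 0.0374) held in 7 of 20 alternatives and was lost whichever of the 8 libraries was left out (FDR 0.0603 to 0.223). The KO rise of *Eef1d* (0.36, FDR 0.0304) held in 11. It was lost without either WT day 0 library, either KO day 0 library or either KO day 5 library (FDR 0.0507 to 0.205). The KO rise of *Eef1g* (0.35, FDR 0.0172) held in 13. It was lost without KO day 0 replicate 1, KO day 5 replicate 1 or KO day 5 replicate 2 (FDR 0.0736 to 0.0915), and with the GC and length offset its log2 fold change was -0.03 (FDR 0.819).

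**Figure D4:**
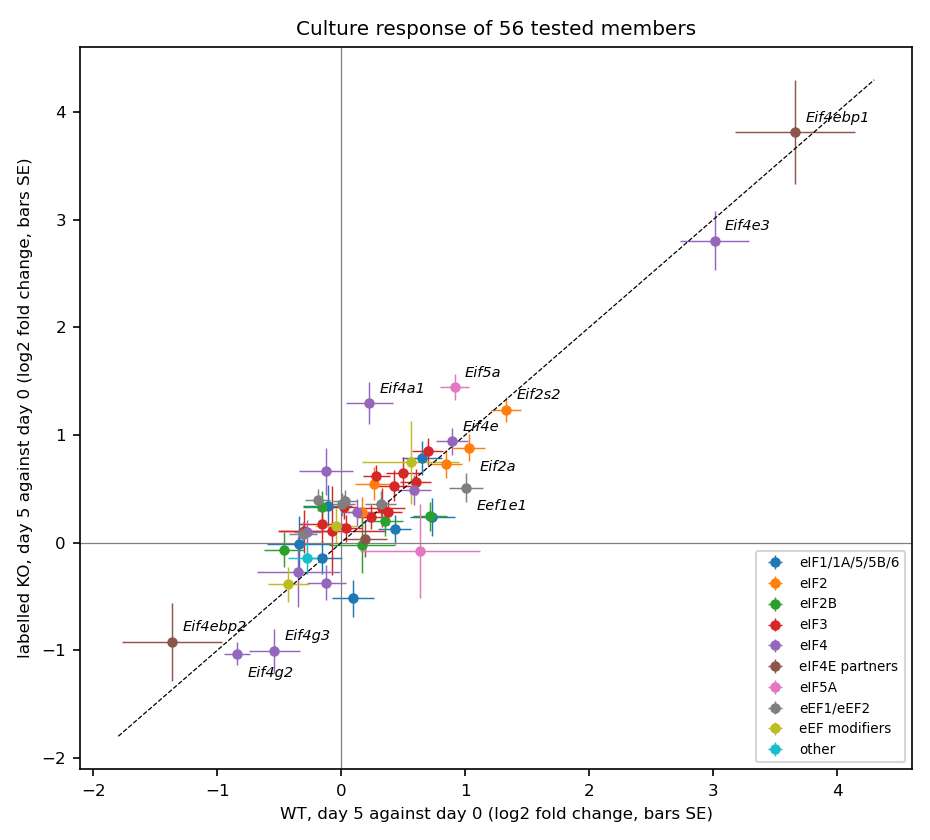
Log2 fold change from day 0 to day 5 of each of the 56 tested members, in WT (horizontal axis) and in the libraries labelled KO (vertical axis). Bars are standard errors, colours give the role and the dashed line marks equal change. *Eif4ebp1* and *Eif4e3* stand far to the upper right, and *Eif4a1* lies above the line at 0.22 and 1.30.

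The culture responses of the genotypes came from separate libraries and were alike across members, with a Pearson correlation of 0.901 and a Spearman correlation of 0.739 over 56 members. Over all genes the Pearson correlation was 0.906. Of the 56, 22 were called in neither genotype and 17 in one. A call in one genotype does not show a difference between genotypes, and the interaction tested that difference. No member passed the interaction test in edgeR (0 of 56, beside 0.159% of all genes). At an unadjusted p under 0.05 there were 13 (23.2%, beside 12.4% of all genes). DESeq2 called 2 (3.57%, beside 1.14%), *Eef2* (log2 difference 0.58, FDR 0.0265) and *Eif4a1* (1.07, FDR 0.00955). The smallest FDR in edgeR was 0.142, for *Eef2*.

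Before culture, 1 member differed between the genotypes. *Eif4a1* encodes the main helicase of eIF4F, which unwinds the 5′ end of the mRNA. At day 0 it had 444.5 and 513 CPM in WT, beside 298 and 223 CPM under the KO label. Both KO libraries were below both WT libraries. The log2 fold change was -0.87 ± 0.19 (edgeR FDR 0.0389), the only call among 56 members (1.79%, beside 1.8% of all genes in either direction and 0.889% lower). The FDR ranged from 2.84e-06 to 0.304 over the alternatives. It was past the threshold in 14 of 19 and was lost without WT day 0 replicate 1 (-0.98, FDR 0.188), WT day 0 replicate 2 (-0.77, FDR 0.304), KO day 0 replicate 2 (-0.65, FDR 0.188), KO day 5 replicate 1 (-0.88, FDR 0.0641) or KO day 5 replicate 2 (-0.88, FDR 0.0623).

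At day 5 *Eif4a1* had 679 and 438 CPM in WT and 651 and 630 CPM in KO. The WT libraries lay on either side of the KO libraries, and the log2 fold change between genotypes was 0.20 (edgeR FDR 0.713). From day 0 to day 5 *Eif4a1* rose in KO (1.30 ± 0.19, FDR 0.000126), a call that held in all 20 alternatives. In WT the log2 fold change was 0.22 ± 0.19 (FDR 0.356). The WT value rests on which day 5 library is used, being -0.10 without replicate 1 and 0.54 without replicate 2 (FDR 0.0213). The interaction was 1.07 ± 0.27 (FDR 0.145), and it passed the threshold without WT day 5 replicate 1 (1.43, FDR 0.0311). WT day 5 replicate 2 also stood apart in the paralogue *Eif4a2*, at 783 CPM beside 521 to 587 CPM in the other day 5 libraries. Per kb, *Eif4a1* was at 0.766 and 0.901 times the level of *Eif4a2* in WT and 0.503 and 0.386 times in KO at day 0. At day 5 the ratios were 1.61 and 0.689 in WT and 1.52 and 1.32 in KO.

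Many members were slightly lower in the libraries labelled KO at day 0 without passing the test. Of the 56, 40 had a negative log2 fold change and 16 a positive one, and the median was -0.16 (range over the alternatives -0.18 to -0.08), beside 0.00 over all genes. In 24 members both KO libraries were below both WT libraries, 42.9% beside 21.7% of all genes, and in 8 both were above, 14.3% beside 21.7%. The 13 eIF3 subunits all had negative values in the reported fit, from -0.63 to -0.02. Over the alternatives *Eif3a*, *Eif3d*, *Eif3j1* and *Eif3l* also turned positive (up to 0.0826, 0.160, 0.0313 and 0.000367). The lowest, *Eif3g*, had 192 and 219 CPM in WT and an uneven 165 and 99.3 CPM in KO. Of 6 genes named after eEF1 and eEF2, 5 had negative values, with a median over the 6 of -0.27. The positive one was *Eef1e1* (0.13), the part of the tRNA synthetase complex. *Eef1b2*, an exchange factor of eEF1A, was closest to the threshold (-0.48, edgeR FDR 0.0504), followed by *Eif5a* (-0.50, FDR 0.0578). These were past the threshold in 7 and 6 of 19 alternatives. The eIF2 list, by contrast, had a median of -0.01. Across members the day 0 difference went down with GC content (Spearman's rho -0.355, beside -0.16 over all genes), and with the GC and length offset the median of members was -0.13. The part of GC content in the shift was not tested further.

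After culture, no member passed the test between genotypes in edgeR (0 of 56, beside 1.63% of all genes), with 8 at an unadjusted p under 0.05 (14.3%, beside 14.1%). DESeq2 called 2 (3.57%, beside 2.78%), *Eef2* as higher in KO (log2 fold change 0.39, FDR 0.0225) and *Eif5b* as lower (-0.53, FDR 0.0269). In edgeR their FDR was 0.0825 and 0.0745. *Eef2* had 1150 and 1090 CPM in WT and 1512 and 1431 CPM in KO at day 5, with no overlap, and 1240 and 1319 CPM in WT and 1121 and 1119 CPM in KO at day 0, where the order was the opposite. *Eif5b* had 185 and 185 CPM in WT and 130 and 127 CPM in KO at day 5. Over the 56 members the median was -0.07, with 34 negative and 22 positive. Both KO libraries were below both WT libraries in 14 members (25% beside 20.7% of all genes) and above in 9 (16.1% beside 25%).

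**Figure D5:**
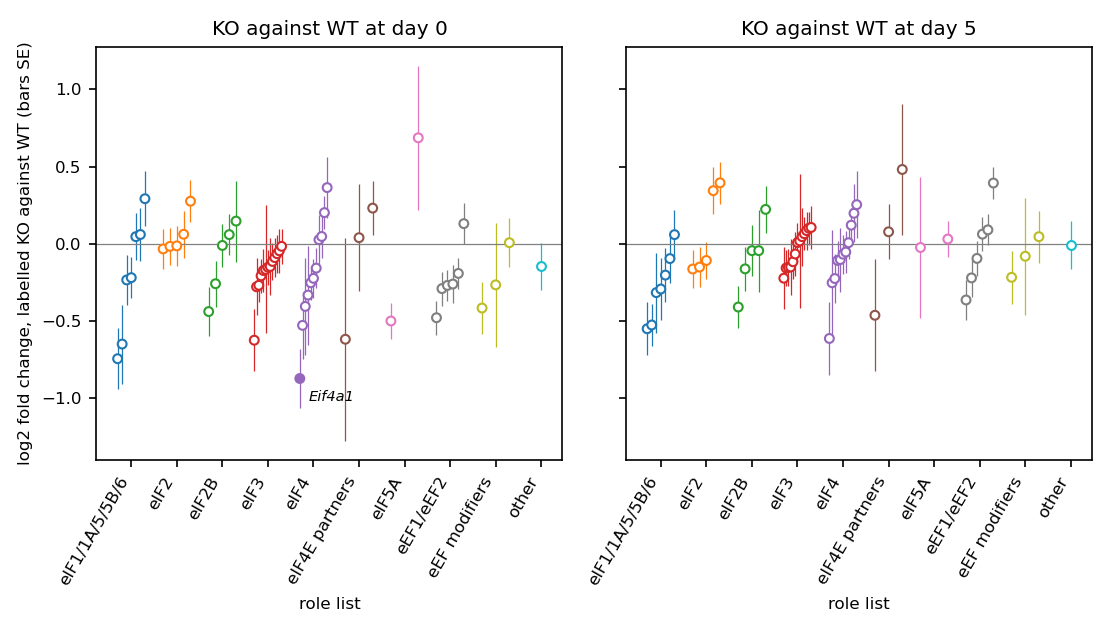
Log2 fold change of the libraries labelled KO against WT for each of the 56 tested members, by role, at day 0 (left) and day 5 (right). Bars are standard errors, and filled points passed the test. *Eif4a1* at day 0 is the only filled point.

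Members with and without the motifs were compared as a description. Of 12 tested members with an E-box, 3 rose in WT and 6 in KO during culture, beside 11 and 11 of the 32 members without one. Of all genes, 24.7% rose in WT and 26.2% in KO, and 23.6% and 24% fell. No E-box member was called lower, beside 5 in WT and 2 in KO of the 32 without one. The median log2 fold changes of the E-box members were 0.12 in WT and 0.36 in KO, and those of the other 32 were 0.15 and 0.19. At day 0 the medians of KO against WT were -0.24 with an E-box and -0.06 without. Of the 10 tested members with a TOP-like start, 0 rose in WT and 2 in KO, beside 14 and 15 of the other 34. None of the 10 was called lower, beside 5 and 2 of the other 34. The median log2 fold changes of the 10 in culture were 0.03 in WT and 0.15 in KO, beside 0.20 and 0.28 for the other 34.

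A list of 44 kinases, phosphatases, modifying enzymes, release factors and regulators outside the name rule had 41 tested genes. In WT 7 rose during culture (17.1% beside 24.7% of all genes) and 12 fell (29.3% beside 23.6%). In KO 5 rose (12.2% beside 26.2%) and 10 fell (24.4% beside 24%, the same share as the background). The median log2 fold change of the list was -0.09 in WT and -0.15 in KO. The 5 that rose in KO also rose in WT. They were *Eif2ak1* (0.66 in WT and 0.67 in KO) and *Eif2ak2* (0.81 and 0.45), kinases that phosphorylate eIF2 alpha, *Larp1* (0.66 and 0.54), which binds TOP mRNAs, *Mcts1* (0.58 and 0.49), a partner in initiation after termination, and *Hbs1l* (0.75 and 1.04), which rescues stalled ribosomes. *Pdcd4*, an inhibitor of eIF4A, fell by 0.83 in WT and 1.31 in KO, and *Mknk2*, a kinase of eIF4E, by 1.10 and 0.70. *Dph2*, an enzyme of the diphthamide residue of eEF2, fell by 1.73 and 1.09. Also lower in both were *Secisbp2* (-1.22 in WT and -0.77 in KO), *Ddx3x* (-0.59 and -1.04) and *Dph5* (-0.66 and -0.71). *Mtor* fell by 0.62 in each (edgeR FDR 0.0236 in WT and 0.0191 in KO), and DESeq2 did not call it in either. The other genes of the list named so far were called by DESeq2 in both genotypes. Between genotypes no gene of the list was called by edgeR at either day. At an unadjusted p under 0.05 there were 6 of 41 at day 0, beside 13.8% of all genes. At day 5 there were 7 of 41, beside 14.1%. DESeq2 called 1 of 41 at each day, beside 2.37% of all genes at day 0 and 2.78% at day 5. These were *Denr* at day 0 (edgeR FDR 0.105) and *Rptor* at day 5 (edgeR FDR 0.0742).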

How the data were processed

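RNA was sequenced from 8 libraries of splenic CD8+ T cells (50-base reads, NEBNext Ultra RNA kit, which does not mark strand). The authors deposited raw counts per gene symbol, 1 table per library. The counter's own summary rows were left out of library sizes. They held 27.5% to 33.7% of records with no feature and 31.8% to 37.4% not aligned uniquely. The submitters' processing notes name HISAT2 2.1.0, HTSeq 0.11.1 and GRCm38 (mm10). The annotation and the strand setting are not given in the sources used here.

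Groups came from the labels. All 8 libraries entered a single edgeR 4.0.16 quasi-likelihood fit (R 4.3.3) with a mean per group, TMM factors and the filterByExpr default (minimum count of 10), and 12597 genes were tested. The common coefficient of biological variation came to 15.0%. P-values were two-sided and adjusted by the Benjamini-Hochberg method over the 12597 genes, and FDR under 0.05 was called. CPM used TMM-scaled library sizes, and values are mean ± SD or, for log2 fold changes, ± SE. The fit was tested on simulated data. Members were matched to GENCODE M21 (62 of 62). A count of 3 per library was taken as the floor. Intervals and floors cover counting error only.

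Named were members called between genotypes, the 12 with the largest mean culture change among those called in both genotypes, listed paralogues and members of counts of 5 or fewer. Members and lists were chosen with earlier results of these data known. One listed marker is not reported here. Alternatives were size factors and test of DESeq2 1.42.0, library totals, no filter or a minimum of 5 CPM in 2 libraries, a fit of the compared libraries alone, replicate blocks, the edgeR 4 form of the test, GC and length offsets (loess span 0.3), equal depth, and leaving out each library.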

Additional observations from a re-analysis of the deposited data

How the results depend on the processing

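For the culture comparisons, alternatives that kept every compared library called 18 to 27 members in WT (25 reported) and 21 to 29 in KO (26 reported). Over all genes they called 5387 to 6228 in WT and 5547 to 6691 in KO, with 10374 to 34404 tested. Fits that left out a library had 1 library in a group, and their member medians are given below. Of 17 members called in both genotypes, 9 were called in both under all 21 settings. Of all named values over the alternatives, 645 kept their direction and their side of the threshold, 45 lost and 4 gained the threshold, and 3 turned direction. Those 3 were *Eif4a1* between genotypes at day 5 without WT day 5 replicate 2 (-0.0831, and up to 0.557 without replicate 1), and *Eif4a1* in WT culture with the GC and length offset and the replicate block (-0.0113) and without WT day 5 replicate 1 (-0.104, and up to 0.539 without replicate 2). The 3 turned values did not pass the test.

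Between genotypes at day 0 the count of called members, 1 as reported, was 2 with library totals, the edgeR 4 form of the test or equal depth, and 3 with no filter, a minimum of 5 CPM in 2 libraries, a fit of the 4 compared libraries alone, or DESeq2. Leaving out a library gave 0 to 3 calls. At day 5 the count was 2 with DESeq2. For the interaction it was 1 with no filter and 2 with DESeq2, and 0 to 1 when a library was left out. Leaving out a library gave 14 to 26 calls in WT culture and 19 to 31 in KO culture. The cause of these changes was not tested.

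Libraries share a replicate number across groups, and nothing in the labels pairs them. Deviations of same-numbered libraries correlated by 0.118 between the WT days and 0.228 between the KO days, and by -0.0742 to 0.00438 in the other pairs of groups. With a replicate block the members called were 1 at day 0, 0 at day 5, 22 in WT culture, 26 in KO culture and 0 in the interaction. Over all 12597 genes that block gave 216, 215, 5999, 6291 and 29 calls. A block within genotype gave 22, 27 and 0 members in the last 3, beside 6064, 6385 and 55 genes.

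With 2 libraries per group the median SE of a member's log2 fold change was 0.15, and 0.21 for the interaction, so differences of that size were not detectable with these libraries. *Eif4ebp1* and *Eif4ebp2* rest on 3 to 89 counts per library.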
